A study of Saccharomyces cerevisiae with 8 samples.

Results

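The effect of acetic acid (AcOH) that 2 strains of the budding yeast Saccharomyces cerevisiae had in common was estimated from all 8 of the 8 arrays of the series. The arrays were taken as 4 at 0.6% AcOH against 4 at 0% AcOH, with strain as a block, so that a gene was judged on the change within each strain and not on the level at which a strain started. NFRI 3145, which the labels call tolerant of the acid, and NBRC 0224, which they call sensitive, each gave 2 arrays at 0.6% AcOH after 30 min and 2 arrays at 0% AcOH. All cultures were kept at 30 °C, and polyA RNA was hybridised to Affymetrix arrays that carry 1 probe set for most genes. The labels give no time for the 0% AcOH arrays, so acid, time and handling cannot be told apart, and they do not say whether the 2 arrays of a group came from separate cultures. The p-values therefore rest on the spread between arrays of a group, which may be technical. Those of the strain-blocked fit, and its standard errors, also hold any difference between the strains in their response.

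Undissociated acetic acid crosses the plasma membrane and releases its proton in the near-neutral cytosol, and the cell exports protons through the plasma membrane ATPase Pma1. Budding yeast is known to answer weak acids through the transcription factors Haa1 and War1, which raise transporters and cell wall proteins, and through heat shock factor. Iron enters yeast by a reductive route, in which surface reductases feed the Fet3 and Ftr1 complex, and by uptake of iron bound to siderophores.

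Of 5449 genes on the array, 3879 were above background on at least 2 arrays and were tested. Background was set on each array by the probe sets of fission yeast and lay between 31.5 and 43.9 intensity units. In the limma fit, 148 genes (3.82% of those tested) rose and 337 (8.69%) fell at an adjusted p under 0.05, and 1066 genes had an unadjusted p under 0.05. Among the called genes, 50 rises and 233 falls were at least 2-fold. In 147 of the rises (3.79%) and 320 of the falls (8.25%), the arrays of the 2 acid levels did not overlap in either strain. Without the requirement of a call, 349 genes (9% of those tested) lay wholly higher and 624 (16.1%) wholly lower at 0.6% AcOH in both strains. RNA of a whole culture cannot tell a smaller share of responding cells from a smaller response per cell, and signals scaled to a common mean do not show a change in total RNA.

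The numbers of calls depended on single arrays and on the scaling. The rises numbered 83 without the first NFRI 3145 array of either acid level, and 97 without either NBRC 0224 0% AcOH array. The falls numbered 216 without NFRI 3145 0.6% AcOH replicate 1. They numbered 174 and 193 when the first or the second of the NFRI 3145 arrays at 0% AcOH was left out. In all 8 fits that left out 1 array each, 66 rises and 149 falls stayed called, and the genes described below are from these unless stated. The split was 181 rises and 227 falls after quantile normalization and 348 and 246 after median centring. Over all tested genes the median log2 change was −0.09 as deposited, 0.04 after quantile normalization and 0.10 after median centring. Medians of gene groups below are from the deposited scale, and any whose sign depended on the scaling is named as such. Counts of called group members are to be read beside the 3.82% of all tested genes called higher and 8.69% called lower.

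The 2 directions differed in signal. Called rises had a median signal of 707 intensity units at 0% AcOH, called falls 173 and all tested genes 152. All 8 arrays were above background for 132 of the 148 rises, 159 of the 337 falls and 2331 of the tested genes. For 82 falls, all 4 arrays at 0.6% AcOH were below background, so that only a bound on the fold can be given, and this held for 1 rise at 0% AcOH. In the plot of change against signal, the falls beyond 2 log2 units lie mainly at low signal and the rises run over the whole range.

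**Figure D1:**
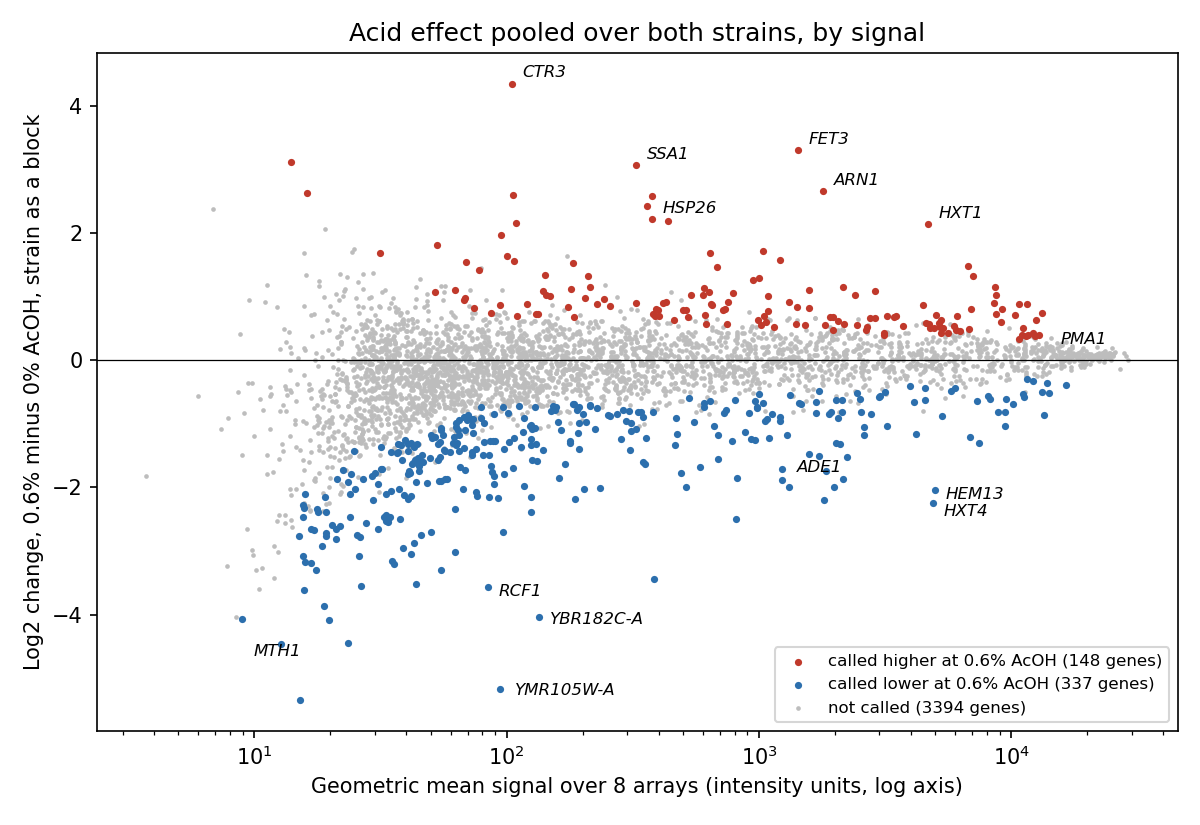
Each point is 1 of 3879 tested genes, with the geometric mean signal over 8 arrays on the horizontal log axis (intensity units) and the log2 change at 0.6% AcOH minus 0% AcOH, strain as a block, on the vertical axis. The 148 genes called higher are red, the 337 called lower blue and the others grey; the large falls are crowded at low signal, and FET3 and ARN1 stand apart at high signal.

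Some array-wide measures differed between the acid levels and others overlapped. The share of tested genes above background was 70.4% and 75.6% in NFRI 3145 and 87.1% and 78.7% in NBRC 0224 at 0.6% AcOH, against 82.6% and 81.9% and 87.5% and 91.3% at 0% AcOH. The 5.8S rRNA control probe set read 12534 and 4568 in NFRI 3145 and 1015 and 2150.1 in NBRC 0224 at 0.6% AcOH, against 18959 to 25474 on the 4 arrays at 0% AcOH. The ratio of the 3′ to the 5′ probe set of TDH1, a control for RNA length, was 20.1 and 26.5 in NFRI 3145 and 2.65 and 5.11 in NBRC 0224 at 0.6% AcOH, against 8.14 and 7.68 and 2.07 and 1.59 at 0% AcOH. The like ratio of WBP1 ran from 9.38 to 9.92 in NFRI 3145 and from 4.02 to 4.39 in NBRC 0224 at 0.6% AcOH, against 8.86 to 9.37 and 3.36 to 3.82 at 0% AcOH. The ratio of RIP1 overlapped in each strain, at 4.81 and 3.58 in NFRI 3145 and 1.80 and 2.01 in NBRC 0224 at 0.6% AcOH, against 3.64 and 3.73 and 1.94 and 1.71 at 0% AcOH. Both 25S rRNA probe sets were lower at 0.6% AcOH within each strain. The 18S rRNA probe set was lower in NFRI 3145, at 2501 and 1388 against 3765 and 6006, and higher in NBRC 0224, at 2091 and 2163 against 1919 and 1322. The part of these measures in the falls was not tested.

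Genes of iron uptake were among the rises. Of 12 tested genes of the reductive route, 7 rose and 0 fell, with a median log2 change of 0.63. Of 7 genes of siderophore uptake and its cell wall mannoproteins, 4 rose and 0 fell, with a median of 1.07. In each of these 11 genes the arrays of the acid levels were apart within both strains. This held for 147 of the 148 called rises, so it adds little to the calls. FET3, the multicopper ferroxidase that oxidises iron for import, read 4784 and 5432 in NFRI 3145 and 3654 and 4309.8 in NBRC 0224 at 0.6% AcOH, against 511 and 454 in NFRI 3145 and 554 and 331 in NBRC 0224 at 0% AcOH. All 4 acid arrays were far above all 4 others, whichever strain they came from. The log2 change was 3.31 ± 0.18 (standard error of the fit, as in all values below), with an adjusted p of 1.6e-06.

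The partner permease FTR1 read 16976 and 16068 in NFRI 3145 and 14260.3 and 15601 in NBRC 0224 at 0.6% AcOH, against 9434 and 9541 and 9809.6 and 5757 at 0% AcOH. Its levels at 0.6% AcOH exceeded 10000, a cut-off taken here as near the top of the scale. Whether changes of such bright genes read too small was not tested. The log2 change was 0.89 ± 0.14 (adjusted p = 0.0019). FRE1 and FRE4 encode surface reductases. FRE4 read 463 and 519 in NFRI 3145 and 1629.8 and 1899 in NBRC 0224 at 0.6% AcOH, against 159 and 166 and 243 and 266 at 0% AcOH. It changed by 2.19 ± 0.24 (adjusted p = 0.000166). FRE1 changed by 2.60 ± 0.35, but both NFRI 3145 arrays at 0% AcOH were below background, and with signals raised to background the change was 1.84. FRE3 and FRE6 rose by 1.12 ± 0.23 and 0.82 ± 0.16, while SMF3, which takes metal out of the vacuole, was called higher in 3 of the 8 fits that left out an array.

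ARN1, a siderophore transporter, read 1690.1 and 1953 in NFRI 3145 and 10037 and 12499 in NBRC 0224 at 0.6% AcOH, against 396 and 344 and 1246 and 1529 at 0% AcOH. NBRC 0224 was the higher strain at both acid levels, and within each strain the arrays were clearly apart. ARN1 changed by 2.66 ± 0.18 (adjusted p = 4.63e-06), and its NBRC 0224 arrays at 0.6% AcOH were near the top of the scale. SIT1, the ferrioxamine transporter, read 750.4 and 844 in NFRI 3145 and 1040.4 and 727 in NBRC 0224 at 0.6% AcOH, against 89.1 and 99.6 and 256 and 251 at 0% AcOH, and changed by 2.43 ± 0.26. The strains met at a like level under acid. ENB1, the enterobactin transporter, and FIT1, a cell wall mannoprotein that helps retain siderophores, rose by 1.16 ± 0.25 and 1.07 ± 0.23 over both strains. In NBRC 0224 alone they had 0.45 and 0.50 and were not called (adjusted p = 0.190 and 0.161). Of 8 tested genes of iron sparing and recycling, 1 rose and 1 fell, with a median of −0.29. The riser, the biotin importer VHT1, was called in 1 of the 8 fits that left out an array. CCC1, which moves iron into the vacuole, fell by 1.31 ± 0.16 (adjusted p = 0.000308). It read 799.6 and 991 in NFRI 3145 and 1849.9 and 1844 in NBRC 0224 at 0.6% AcOH, against 2798 and 2036 and 3879 and 4585 at 0% AcOH.

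Of 10 tested genes of copper handling, 3 rose and 1 fell. CTR3, a high-affinity copper transporter, had the largest fitted rise of the called genes, 4.35 ± 0.58 (adjusted p = 0.000671). It read 182 and 308 in NFRI 3145 and 1420.3 and 631 in NBRC 0224 at 0.6% AcOH, against 11.5 and 2.59 and 55.3 and 174 at 0% AcOH. Both NFRI 3145 arrays at 0% AcOH were below background, and with signals raised to background the change was 2.91. SOD1, the copper and zinc superoxide dismutase, rose by 0.74 ± 0.13, and the metallothionein CRS5 fell by 1.45 ± 0.30 with 1 of 4 acid arrays above background. Of 12 tested zinc genes, 3 fell and 0 rose, with a median of −0.22, and all 3 belong to the IZH family of membrane proteins that affect zinc balance. IZH2 read 688 and 579.7 in NFRI 3145 and 1094 and 484 in NBRC 0224 at 0.6% AcOH, against 1533 and 1511 and 4124 and 2572 at 0% AcOH. It fell by 1.72 ± 0.28. IZH1 read 1054 and 1129.5 in NFRI 3145 and 1552 and 599 in NBRC 0224 at 0.6% AcOH, against 2983 and 3028 and 3684 and 2119.9 at 0% AcOH. IZH4 had 1 of 4 acid arrays above background, and its change was −3.01 ± 0.45, or −2.14 with signals raised to background. The zinc importers ZRT1 and ZRT2 had log2 changes of −0.36 and −0.19 and were not called.

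**Figure D2:**
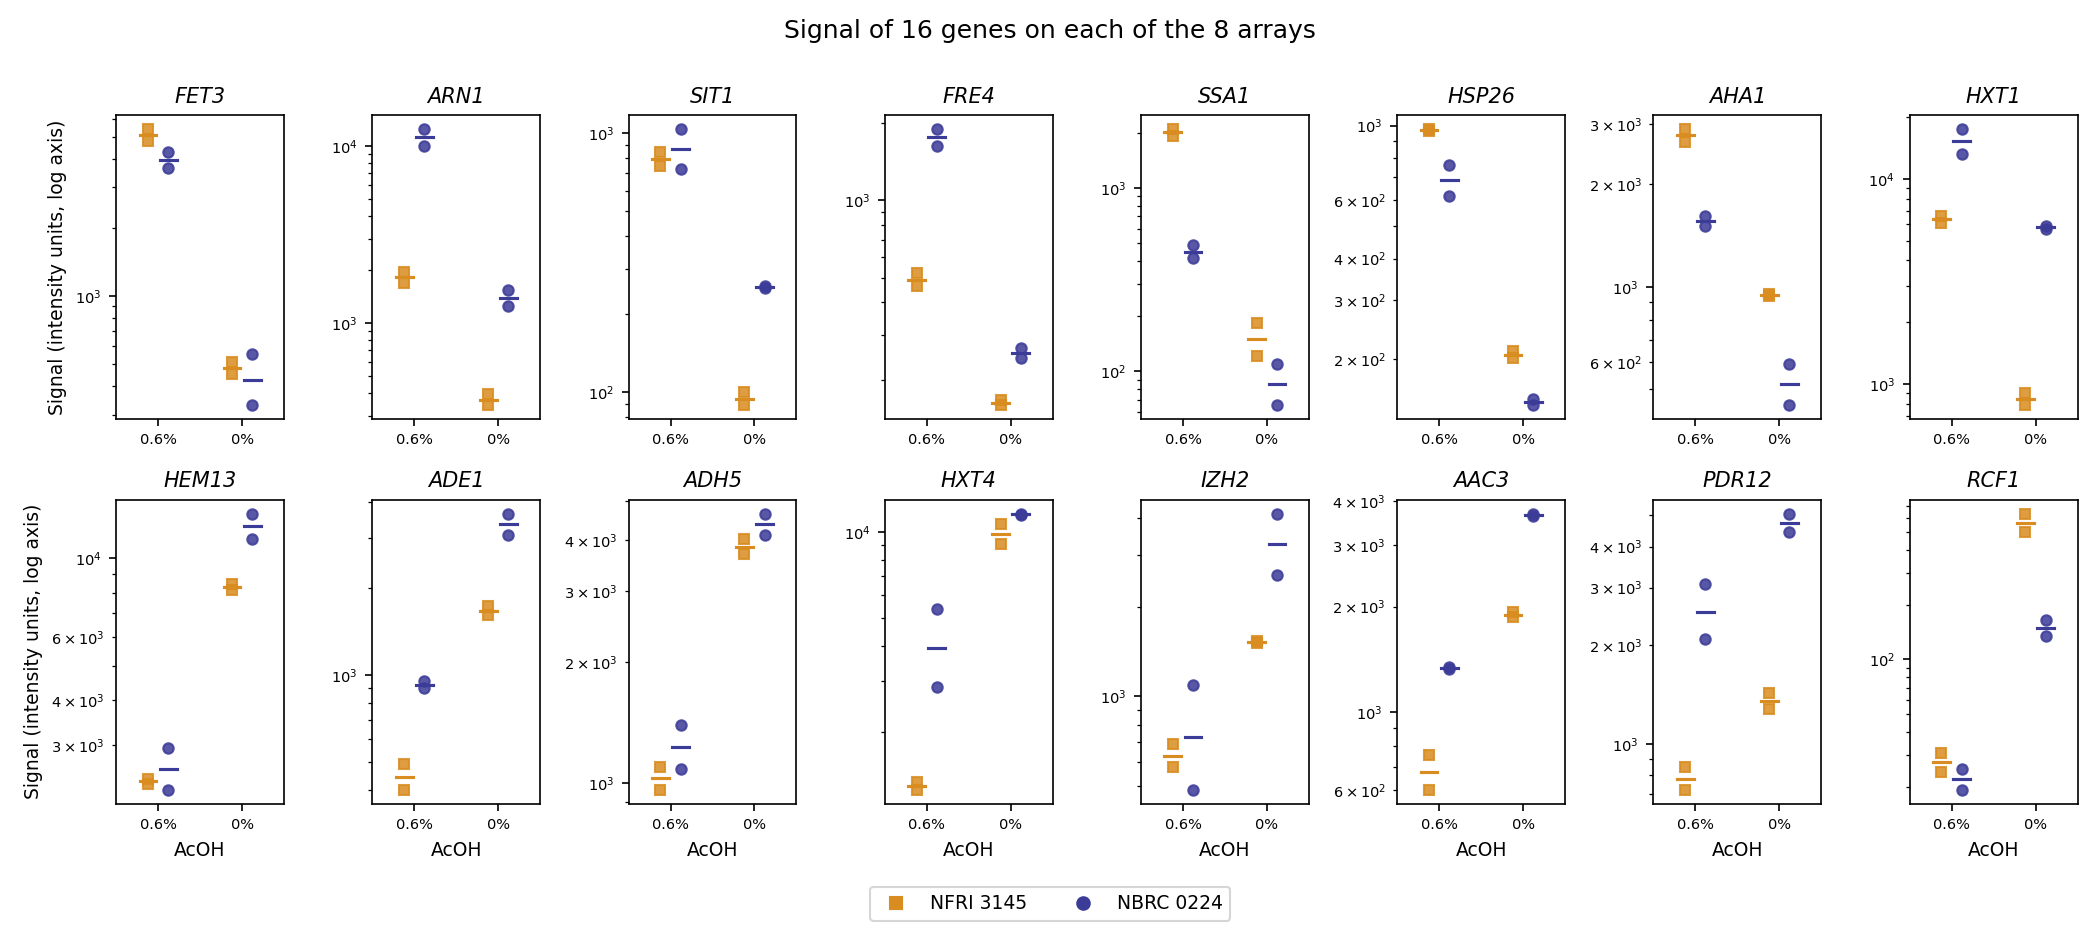
Each panel gives the signal of 1 gene (intensity units, log axis, a different range in each panel) on the arrays at 0.6% AcOH on the left and 0% AcOH on the right. Squares are NFRI 3145, circles NBRC 0224, and the short lines are geometric means of 2 arrays. The 16 genes were picked from the called genes, and within each strain their 2 acid levels do not overlap. The same held for 147 of the 148 called rises and 320 of the 337 called falls.

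Chaperone genes also rose. Of 16 tested genes of the cytosolic Hsp70 and Hsp90 systems, 7 rose and 0 fell, with a median of 0.51. SSA1, a cytosolic Hsp70, read 1919 and 2097 in NFRI 3145 and 486 and 414 in NBRC 0224 at 0.6% AcOH, against 122 and 184 and 65.4 and 109.8 at 0% AcOH. The lowest acid array was more than 2-fold above the highest array without acid. SSA1 changed by 3.07 ± 0.29 (adjusted p = 5.75e-05). Its close copy SSA2 changed by 0.87 ± 0.19, and the ribosome-bound Hsp70 genes SSB1 and SSB2 were not called, at 0.07 and 0.08.

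AHA1, which stimulates the ATPase of Hsp90, read 2663 and 2908 in NFRI 3145 and 1509 and 1617 in NBRC 0224 at 0.6% AcOH, against 942 and 954 and 449.9 and 594 at 0% AcOH. It rose by 1.57 ± 0.15, and the Hsp70 to Hsp90 adaptor STI1 by 1.35 ± 0.23. HSF1, which encodes heat shock factor itself, rose by 1.32 ± 0.27 (adjusted p = 0.00752). HSC82, the constitutive Hsp90, rose by 0.89 ± 0.19, and the inducible HSP82 had 0.73 ± 0.32 and was not called. HSP26, a small heat shock protein that holds unfolded proteins, read 977 and 965 in NFRI 3145 and 765 and 617 in NBRC 0224 at 0.6% AcOH, against 202 and 211 and 152 and 146 at 0% AcOH. All acid arrays were well above all others, with a log2 change of 2.22 ± 0.17 (adjusted p = 9.62e-06).

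In mitochondria, the folding chamber pair HSP60 and HSP10 rose, and the other 4 tested mitochondrial chaperone genes were not called. HSP10 read 11638 and 10714 in NFRI 3145 and 10492 and 12228 in NBRC 0224 at 0.6% AcOH, against 3463 and 4549 and 4249 and 3902 at 0% AcOH. It changed by 1.48 ± 0.12 and HSP60 by 0.91 ± 0.10, both with acid levels near the top of the scale. Of 25 tested genes of peroxide and thiol defence, 6 rose and 0 fell, with a median of 0.34. AHP1, a thiol peroxidase, rose by 1.33 ± 0.12, and its NFRI 3145 arrays at 0.6% AcOH were near the top of the scale. The thioredoxin TRX2 rose by 1.03 ± 0.15, the mitochondrial superoxide dismutase SOD2 by 0.92 ± 0.16 and the glutaredoxin GRX5 by 0.69 ± 0.14. Among 22 tested targets of the general stress factors Msn2 and Msn4, 1 rose and 1 fell (4.55% each), with a median of 0.04. That median joins strains of opposite sign, with −0.26 in NFRI 3145 and 0.46 in NBRC 0224. The riser was GRE3, an aldose reductase, at 1.03 ± 0.18, and 2 rose without NFRI 3145 0% AcOH replicate 2. SOL4 was called lower in 4 of the 8 fits that left out an array.

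No gene of the Haa1 and weak acid list was called higher. Of its 15 tested members, 3 fell, with a median of −0.49, and 8 fell when NBRC 0224 0.6% AcOH replicate 1 was left out. PDR12, the exporter of organic acid anions, read 724 and 846 in NFRI 3145 and 3065 and 2082 in NBRC 0224 at 0.6% AcOH, against 1433 and 1281 and 5042 and 4448 at 0% AcOH. The arrays were apart in each strain, and PDR12 fell by 0.85 ± 0.16 (adjusted p = 0.00487). HAA1 read 38.6 and 45.3 in NFRI 3145 and 33.2 and 31.0 in NBRC 0224 at 0.6% AcOH, against 189 and 188 and 80.8 and 66.0 at 0% AcOH. With 2 of the 4 acid arrays above background, HAA1 had a log2 change of −1.68 ± 0.27, or −1.51 with signals raised to background. SUR2, the sphingoid base hydroxylase, fell by 1.25 ± 0.24. The Haa1 targets TPO2, TPO3 and YRO2 had log2 changes of −0.60 ± 0.21, −0.78 ± 0.27 and −1.39 ± 0.49 and were not called.

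None of the 13 tested genes of proton export and acid entry was called by limma, 4 had an unadjusted p under 0.05, and 2 were called lower when NBRC 0224 0.6% AcOH replicate 1 was left out. PMA1 read 14374 and 14249 in NFRI 3145 and 16871 and 18856 in NBRC 0224 at 0.6% AcOH, against 15169 and 14849.8 and 16009 and 15436 at 0% AcOH. All were near the top of the scale. Both acid arrays were lower in NFRI 3145, with a log2 change of −0.07, and both were higher in NBRC 0224, with 0.18, and neither change nor their difference was called (adjusted p of the difference 0.422). The pooled log2 change was 0.06 ± 0.09 (adjusted p = 0.711). WAR1 had −0.07 ± 0.27, and its sign turned under quantile normalization and median centring. HSP30, which moderates Pma1, read 1063 and 117 on the 2 NBRC 0224 arrays at 0.6% AcOH, so its −0.45 ± 0.61 rests on replicates that were far apart. FPS1, the channel through which acetic acid can enter, had −0.69 ± 0.28 (adjusted p = 0.135), and its 4 NFRI 3145 arrays were below background.

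Purine synthesis had the lowest pooled median of the 45 lists. Of 13 tested genes, 6 fell and 0 rose, and the median log2 change was −0.81. The median was −0.37 in NFRI 3145 and −0.87 in NBRC 0224. In NFRI 3145 other lists were lower, among them glycerol at −1.13, gluconeogenesis at −0.84 and the Haa1 list at −0.79. ADE1, which makes an intermediate of the pathway, read 401 and 492 in NFRI 3145 and 952 and 901 in NBRC 0224 at 0.6% AcOH, against 1736 and 1616 and 3077 and 3635 at 0% AcOH. The acid arrays were all below the others, with a log2 change of −1.88 ± 0.15 (adjusted p = 1.36e-05). ADE13 changed by −1.78 ± 0.32 and ADE4, the entry enzyme of the pathway, by −1.57 ± 0.27. ADE8 and ADE17 changed by −0.93 ± 0.18 and −0.81 ± 0.11, and the ADE17 level of NBRC 0224 at 0% AcOH was near the top of the scale. The sixth, ADE6, was called in 3 of the 8 fits that left out an array. In one-carbon and glycine metabolism, which feeds purine synthesis, 3 of 11 tested genes fell and 0 rose, and 5 fell without NBRC 0224 0.6% AcOH replicate 2. GCV2, a subunit of glycine decarboxylase, changed by −0.90 ± 0.17.

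Genes of heme, sterol and fatty acid synthesis were among the falls with high signal. HEM13, the heme pathway enzyme that uses oxygen, read 2415 and 2328 in NFRI 3145 and 2937 and 2247 in NBRC 0224 at 0.6% AcOH, against 8447 and 8164 and 13314 and 11324 at 0% AcOH. Its log2 change was −2.03 ± 0.14 (adjusted p = 4.63e-06). AAC3, the anaerobic ADP/ATP carrier, fell by 1.47 ± 0.14. With the cell wall mannoproteins TIR1 and TIR4, these made 4 falls and 0 rises among 16 tested hypoxic and cell wall genes. The pooled median was −0.31, but the strain medians were −0.09 in NFRI 3145 and −0.13 in NBRC 0224. Over all tested genes they were −0.07 and −0.11, so the list as a whole was not clearly lower within either strain. OLE1, the fatty acid desaturase, read 3109 and 3208 in NFRI 3145 and 7525 and 5653 in NBRC 0224 at 0.6% AcOH, against 7966 and 6959 and 15459 and 13826 at 0% AcOH. It fell by 1.20 ± 0.12, and HMG2, an HMG-CoA reductase, changed by −1.04 ± 0.11. At 0% AcOH, HMG2 in both strains and HEM13 and OLE1 in NBRC 0224 were near the top of the scale.

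Lipid lists moved both ways. Of 26 tested ergosterol genes, 3 rose (11.5%) and 4 fell (15.4%), with a median of −0.10 whose sign turned under median centring. The rises numbered 1 without NBRC 0224 0% AcOH replicate 1 or any of the NFRI 3145 arrays. MVD1, mevalonate diphosphate decarboxylase, rose by 0.51 ± 0.09, a call lost in limma without the intensity trend (adjusted p = 0.0547). Its arrays at 0.6% AcOH, and those of NFRI 3145 at 0% AcOH, were near the top of the scale. The acyl-CoA synthetases moved apart, with FAA1 changing by 1.64 ± 0.23 and FAA4 by −1.53 ± 0.23. FAA1 was below background on both NFRI 3145 arrays at 0% AcOH, and its change was 1.35 with signals raised to background. Of 19 tested fatty acid and sphingolipid genes, 1 rose and 4 fell, and the alkaline ceramidase gene YPC1 was among the falls, at −1.60 ± 0.22.

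Genes for 2 hexose carriers changed in opposite directions. HXT1, the low-affinity carrier, read 6581 and 6125 in NFRI 3145 and 13232 and 17529 in NBRC 0224 at 0.6% AcOH, against 789 and 906 and 5714 and 5916 at 0% AcOH. HXT1 rose by 2.15 ± 0.25 (adjusted p = 0.000273). HXT4, a high-affinity carrier, read 1250.2 and 1328 in NFRI 3145 and 5393 and 2873 in NBRC 0224 at 0.6% AcOH, against 9089 and 10695 and 11529 and 11605 at 0% AcOH. It fell by 2.25 ± 0.26 (adjusted p = 0.000273), and 3 of its arrays at 0% AcOH were above 10000. MTH1, which represses hexose carrier genes when glucose is scarce, was below background on all 4 acid arrays and fell at least 2.80-fold (adjusted p = 0.0011). In all, 1 of 14 tested hexose transport and sensing genes rose and 3 fell, with a median of 0.11, and 2 rose without either NBRC 0224 array at 0.6% AcOH. The falls numbered 4 without NBRC 0224 0.6% AcOH replicate 1 and 2 when any other array was left out. HXT3, another low-affinity carrier, had −0.02 and was not called.

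In central metabolism, calls went both ways. IDH2, of mitochondrial isocitrate dehydrogenase, and ACO1, aconitase, rose by 1.29 ± 0.19 and 0.72 ± 0.13, among 3 rises and 0 falls of 17 TCA cycle genes with a median of 0.25. The rises numbered 6 without NBRC 0224 0.6% AcOH replicate 2 and 2 when any NFRI 3145 array was left out. Of the same genes, 1 fell without the second NFRI 3145 array of either acid level. CYC1, cytochrome c, read 1154 and 1323 in NFRI 3145 and 1119 and 968 in NBRC 0224 at 0.6% AcOH, against 296 and 343 and 608 and 464 at 0% AcOH. It rose by 1.46 ± 0.22. Of 34 respiratory chain and ATP synthase genes, 5 rose (14.7%) and 2 fell (5.88%), with a median of 0.18. The rises numbered 3 without NFRI 3145 0.6% AcOH replicate 1, and the falls 0 or 1 in all fits without 1 array but that without NBRC 0224 0.6% AcOH replicate 2. Of 22 genes of glycolysis and fermentation, 0 rose and 3 fell (13.6%), with a median of 0.07. Without either NFRI 3145 0% AcOH array, 1 fell. The strain medians had opposite signs, at −0.03 in NFRI 3145 and 0.16 in NBRC 0224. ADH5, an alcohol dehydrogenase, fell by 1.87 ± 0.14, reading 964 and 1097 in NFRI 3145 and 1393 and 1089 in NBRC 0224 at 0.6% AcOH, against 4035 and 3696 and 4657 and 4135 at 0% AcOH. Of 10 genes of gluconeogenesis and the glyoxylate cycle, 1 rose and 2 fell, with a median of 0.06. Here too the strains had opposite signs, with medians of −0.84 in NFRI 3145 and 0.61 in NBRC 0224. The riser, the carnitine acetyltransferase gene YAT1, was not called without NFRI 3145 0% AcOH replicate 1 or either NBRC 0224 0% AcOH array. MDH2, the cytosolic malate dehydrogenase, fell by 2.01 ± 0.25. Of 10 tested glycerol genes, 2 rose and 4 fell, with a median of −0.78. The falls numbered 1 without either NFRI 3145 array at 0% AcOH and 2 without either at 0.6% AcOH. GPD2, of glycerol synthesis, changed by −1.08 ± 0.20. The rises were the dihydroxyacetone kinase gene DAK1 and the kinase gene HOG1, and neither was called when NBRC 0224 0% AcOH replicate 1 or any NFRI 3145 array was left out. Of 7 genes that turn acetaldehyde or acetate into acetyl-CoA or back, ALD6 and ACS2 were called higher, but neither was called when any of the 4 NFRI 3145 arrays was left out.

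Sulfur and amino acid uptake genes had more rises than falls. Of 25 tested sulfur and methionine genes, 8 rose and 1 fell, with a median of 0.19, and the rises numbered 4 without the first NFRI 3145 array of either acid level and 5 without NFRI 3145 0% AcOH replicate 2. Without NBRC 0224 0% AcOH replicate 1, 2 fell. MET17, which makes homocysteine, read 16762 and 16439.7 in NFRI 3145 and 16719.6 and 18637 in NBRC 0224 at 0.6% AcOH, against 9869.9 and 9313 and 9976 and 11746 at 0% AcOH. It rose by 0.75 ± 0.09 with acid levels near the top of the scale, and the homocysteine methyltransferase MHT1 by 1.97 ± 0.35. MUP3, a low-affinity methionine permease, fell by 0.88 ± 0.16. Of 19 amino acid permeases, 6 rose and 1 fell, with a median of 0.08, and the rises numbered 3 without NFRI 3145 0.6% AcOH replicate 1. That median joins strains of opposite sign, with −0.06 in NFRI 3145 and 0.42 in NBRC 0224. MMP1, SAM3 and MUP1 are in this list and in the sulfur list, and count among the rises of both. The fall, GAP1, was called in 2 of the 8 fits that left out an array. BAP2, a leucine permease, rose by 1.03 ± 0.14 with acid levels near the top of the scale. TPO4, a polyamine exporter, had far higher signals in NBRC 0224 than in NFRI 3145 and fell by 1.99 ± 0.20 over both. It read 125 and 159 in NFRI 3145 and 3766 and 2564 in NBRC 0224 at 0.6% AcOH, against 751 and 687 and 9274 and 9942 at 0% AcOH.

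Ribosomal genes had few calls. Of 75 tested genes of the large ribosomal subunit, 1 rose and 1 fell, and of 53 of the small subunit 2 rose and 2 fell, with medians of 0.06 and 0.08. Each of these 4 counts lay between 0 and 2 when 1 array was left out. Of 56 ribosome biogenesis genes, 0 rose and 3 fell (5.36%), beside 8.69% of all tested genes called lower. None of 9 histone, 32 translation factor and 7 arginine synthesis genes was called by limma, and 0, 3 and 0 of them had an unadjusted p under 0.05. Without NBRC 0224 0% AcOH replicate 1, 1 translation factor was called higher. Another was called lower without NFRI 3145 0.6% AcOH replicate 2, and 1 histone gene was called higher without NBRC 0224 0.6% AcOH replicate 2. As a check on the state of the cultures, 1 of 9 tested mating genes (FAR1) and 1 of 4 sporulation genes (SPR3) were called, both lower and both in 4 of the 8 fits that left out an array. A mating gene was called higher without NBRC 0224 0.6% AcOH replicate 2.

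**Figure D3:**
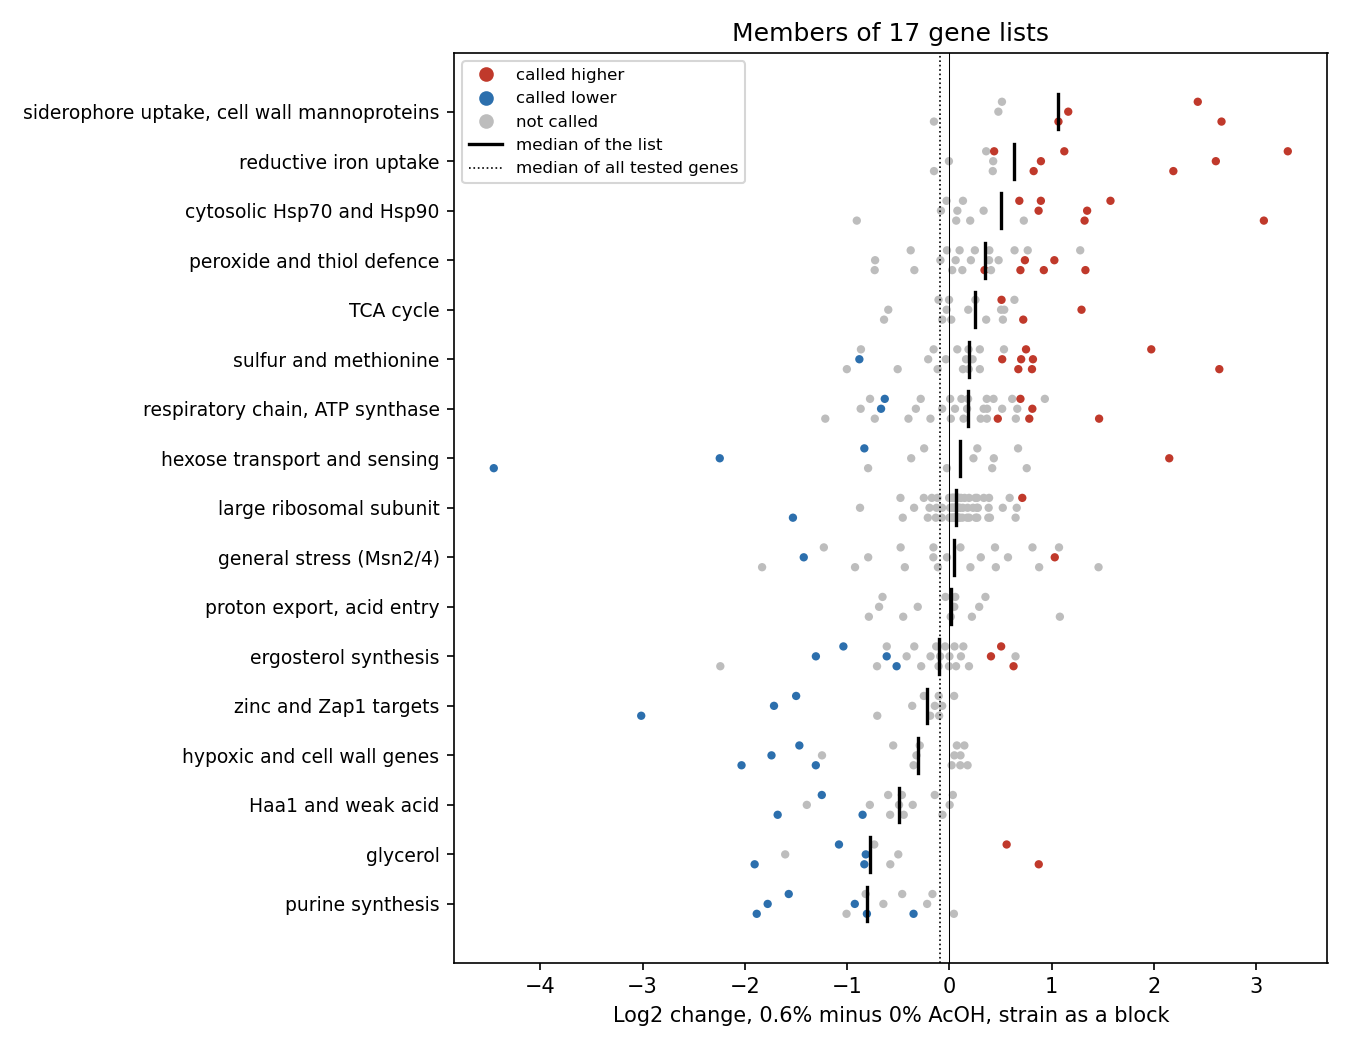
Each point is a tested member of 1 of 17 gene lists, placed by its log2 change at 0.6% AcOH minus 0% AcOH with strain as a block; red points were called higher, blue points lower and grey points not called. The thick bar is the median of the list and the dotted line the median of all 3879 tested genes, −0.09; iron uptake and chaperone lists lie to the right of it, purine synthesis, glycerol and the Haa1 list to the left.

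Of the 15 largest falls, 12 were in genes of no list, and 10 had a mean signal at 0% AcOH below the median of all tested genes. Of the 337 falls, 271 were in no list (80.4%), and of the 148 rises 81 (54.7%), beside 77.6% of all tested genes. Of 171 tested reading frames whose systematic name carries a letter suffix, 32 fell (18.7%) and 13 rose (7.60%), beside 8.69% and 3.82% of all tested genes. YMR105W-A, a frame with no gene name, read 23.0 and 15.2 in NFRI 3145 and 19.1 and 8.98 in NBRC 0224 at 0.6% AcOH, against 924 and 899 and 339 and 354 at 0% AcOH. All 4 acid arrays were below background, and it fell at least 14.2-fold (adjusted p = 1.6e-06). Its neighbour YKU80, of the Ku complex that binds broken DNA ends, was also below background on all acid arrays, and fell at least 2.45-fold.

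RCF1, which helps assemble respiratory supercomplexes, read 30.8 and 24.2 in NFRI 3145 and 25.1 and 19.2 in NBRC 0224 at 0.6% AcOH, against 501 and 633 and 166 and 135 at 0% AcOH. It fell at least 7.34-fold (adjusted p = 4.7e-05). BFA1, of the spindle position checkpoint, fell at least 4.38-fold and GEM1, a GTPase of the mitochondrial outer membrane, at least 3.75-fold. YBR182C-A had 1 acid array above background, and with signals raised to background it fell by 3.48 on the log2 scale. YPC1, described above, is its neighbour. Among 2441 pairs of neighbouring tested genes, 22 were both lower, 7 both higher and 13 called in opposite directions. Of all tested genes, 8.69% were called lower and 3.82% higher. Whether neighbours moved together more often than these shares would give was not tested.

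Some of the 15 largest rises and 15 largest falls rest on dim or single arrays. Of the 15 rises, 11 stayed called in all 8 fits that left out an array, and of the 15 falls 10. MTR3, an exosome subunit, was called in 1 of the 8, SUL1, a sulfate permease, in 2, NEJ1 in 3, PBS2 in 4, MPD2 and FEX2 in 5, and TCA17, YPL150W and YDR169C-A in 6. NEJ1 has no fold here, because its bound against background was under 1. FEX2, a fluoride exporter, was below background on all 4 NFRI 3145 arrays, so its pooled change of 2.16 ± 0.55 has no reading in that strain, and it was 0.26 with signals raised to background.

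The acid response differed between strains for 33 genes (0.851% of those tested), 8 of them with a higher and 25 with a lower log2 change in NFRI 3145 than in NBRC 0224. This number ran from 4, without NBRC 0224 0% AcOH replicate 1, to 336, without NBRC 0224 0.6% AcOH replicate 1. It was 10 and 11 without the second 0% AcOH array of NBRC 0224 or of NFRI 3145. It was 14 without NFRI 3145 0.6% AcOH replicate 1 and 53 without NBRC 0224 0.6% AcOH replicate 2. Whichever array was left out, 3 of the 33 stayed called, namely YET1, FRE7 and PCK1, which encodes the gluconeogenic enzyme PEP carboxykinase. No gene with a pooled call had opposite signs in the strains, but the pooled call itself favours genes that moved alike in both. Of all tested genes, 2332 (60.1%) had the same sign in both strains. FET3 changed by 3.40 in NFRI 3145 and 3.21 in NBRC 0224, and HSP26 by 2.23 and 2.21. ADE1 changed by −1.92 in NFRI 3145 and −1.85 in NBRC 0224. These differences were not called. Among the genes named above, HXT1 rose more in NFRI 3145, at 2.91 against 1.39 in NBRC 0224 (adjusted p of the difference 0.0132), and TIR1 fell more there, at −2.06 against −0.55 (adjusted p = 0.00414). In NBRC 0224, both acid arrays of HXT1 and all 4 arrays of TIR1 were near the top of the scale. Whether this shrank their changes was not tested. Both differences were lost without NBRC 0224 0% AcOH replicate 1, with adjusted p of 0.111 and 0.0603. TIR4 went the other way, at −0.76 in NFRI 3145 against −2.72 in NBRC 0224 (adjusted p = 0.0116). ENB1 and HSC82 also differed, at 1.87 in NFRI 3145 against 0.45 in NBRC 0224 and at 0.34 against 1.45, the HSC82 levels of NFRI 3145 lying near the top of the scale. TIR4, ENB1 and HSC82 stayed called in 5, 2 and 3 of the 8 fits that left out an array. The plot of the responses shows HXT1, TIR1 and TIR4 off the diagonal.

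**Figure D4:**
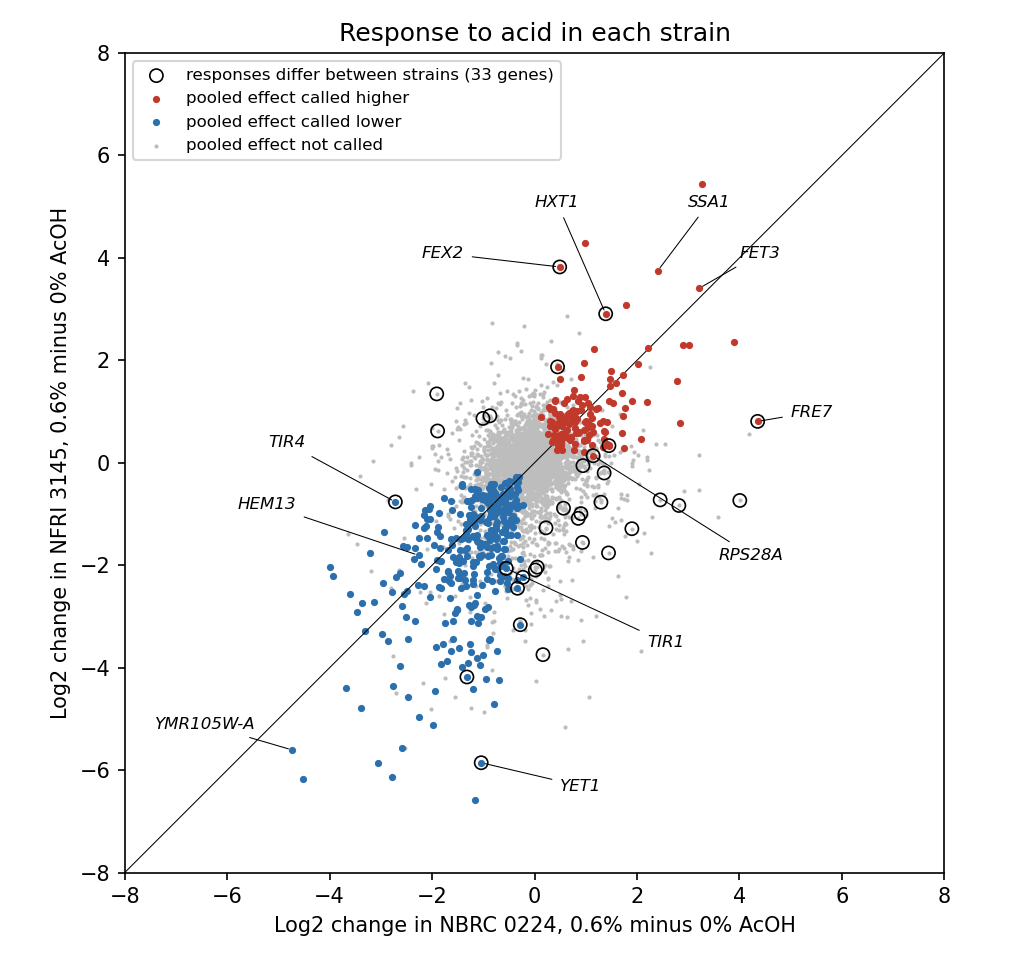
Each point is a tested gene, with its log2 change at 0.6% AcOH minus 0% AcOH in NBRC 0224 on the horizontal axis and in NFRI 3145 on the vertical axis. Red and blue points have a pooled effect called higher or lower, and circles mark the 33 genes whose responses differed; FET3 lies near the line of equal change, while HXT1, YET1 and FRE7 lie away from it.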

How the data were processed

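PolyA RNA of the 8 samples was extracted with hot phenol and labelled with biotin, per the labels. The authors deposited 1 linear signal in intensity units per probe set and array. The submitters' processing notes name GCOS, with no version, and each array's mean after trimming 2% at each end was near 501, so arrays had been scaled to a common mean. Deposited signals were taken to log2 here. Summarisation and background settings were not given in the sources used here.

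Of 10928 probe sets, 5498 belong to 5449 S. cerevisiae genes by the platform annotation and the R64 gene table (12 symbols updated), and 1746 belong to S. pombe. The 95th percentile of the S. pombe probe sets was an array's background, and a gene was tested when above it on at least 2 arrays. Where a gene had several probe sets (47 genes), the one highest in mean log2 signal stood for it. Probes follow the reference strain and were not compared with these strains.

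The strain-blocked model used limma 3.58.1 (R 4.3.3) on log2 signals, with terms for strain and acid, and eBayes(trend = TRUE), Benjamini-Hochberg adjustment over 3879 genes and a call at an adjusted p under 0.05 (5 residual degrees of freedom, 11.8 after moderation). A fit of 4 group means gave each strain's response and their difference. Where all 4 arrays of an acid level were below background, a fold is written as at least that against background. A signal above 10000 counted as near the top of the scale. No batch or scan date is given, and 2 arrays a group limit the precision. The same replicate number did not pair arrays (correlations of deviations from −0.0538 to 0.0538, from the data).

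The comparison, the naming rule and the 45 gene lists were chosen with earlier results of these data known. Lists are described by counts and medians, with no test. Some symbols of the lists were edited after the first counts were seen, to the forms in the R64 table, and 2 entries were dropped, 1 a duplicate and 1 unmatched. The rule took the 15 largest rises and 15 largest falls whose arrays do not overlap in either strain, up to 3 members of each list with 2 or more calls, and HAA1, WAR1, PDR12, FPS1, PMA1, HSP30 and YET1. Other list members named in the text were chosen after their values were seen. The strain-blocked fit was run on 20 simulated sets of 3879 genes, of which 200 changed. In these, 59.3% of 2-fold and 87.4% of 4-fold changes were recovered, and 5.33% of calls were false. The simulated acid effect was the same in both strains, with noise independent between arrays at the spread within groups. Differences between strains in response were not simulated, so these rates need not hold for the data. Alternatives were other normalizations, background filters, probe set rules, a replicate block, eBayes without trend and leaving out each array. Python 3.11.15 and matplotlib 3.10.9 made the plots.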

Additional observations from a re-analysis of the deposited data

Results flagged for a closer look

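For 6 of the genes chosen by the naming rule, the test of the difference itself found that the acid response differed between strains, given as NFRI 3145 minus NBRC 0224 on the log2 scale. HXT1, a hexose carrier, differed by 1.52, with 2.91 in NFRI 3145 and 1.39 in NBRC 0224, where both acid arrays were near the top of the scale. RPS28A, a ribosomal protein, differed by −1.01, with 0.14 in NFRI 3145 and 1.14 in NBRC 0224, and its NFRI 3145 levels were near the top of the scale. TIR1, a cell wall mannoprotein, differed by −1.51, with −2.06 in NFRI 3145 and −0.55 in NBRC 0224, where all 4 arrays were near the top of the scale. Of the 8 fits that left out an array, HXT1 was called in 5, RPS28A in 2 and TIR1 in 7. The highest adjusted p was without NBRC 0224 0% AcOH replicate 1 for HXT1 and TIR1 (0.111 and 0.0603) and without NFRI 3145 0% AcOH replicate 2 for RPS28A (0.187).

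The other 3 genes had larger differences. YET1, a membrane protein of the endoplasmic reticulum, differed by −4.81. It read 35.7 and 24.3 in NFRI 3145 and 591 and 356 in NBRC 0224 at 0.6% AcOH, against 1578 and 1839 and 969 and 919.8 at 0% AcOH, and both NFRI 3145 acid arrays were below background. FRE7, a copper-regulated reductase, differed by −3.55. It read 199 and 242 in NFRI 3145 and 3881 and 3905 in NBRC 0224 at 0.6% AcOH, against 134 and 117 and 152 and 238 at 0% AcOH, all above background. FEX2 differed by 3.33, but all 4 of its NFRI 3145 arrays were below background, so this is no measured difference of a response, and it was called in 6 of the 8 fits. YET1 and FRE7 were called in all 8. Groups of 2 arrays were too small to look for outlying arrays.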

How the results depend on the processing

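Beside the 148 rises and 337 falls, eBayes without the intensity trend gave 77 rises and median centring 348, and testing only genes above background on all 8 arrays gave 175 falls, since fewer dim genes were tested. Leaving out 1 array gave 83 to 183 rises and 174 to 364 falls. The 33 genes whose response differed between strains were 5 without the trend, 54 after quantile normalization, 148 with signals floored at background and 4 to 336 with 1 array left out; the cause was not tested. With the replicate number as a block, which did not pair the arrays, there were 122 rises, 292 falls and 50 differing genes. Of the 105 called named genes, 68 stayed called under each alternative that could be fitted. PMA1 and WAR1, neither called, changed sign. PMA1 had −0.034 after quantile normalization and −0.000414 to 0.088 with 1 array left out. WAR1 had 0.27 after quantile normalization, 0.13 after median centring and −0.24 to 0.00174 with 1 array left out. Low signal limits many falls, since 47.2% of them were above background on all 8 arrays, against 89.2% of the rises.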
